A study of Mus musculus with 24 samples.

Results

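The DEAD box and DEAH box helicases are enzymes that use ATP to unwind or remodel RNA and the proteins bound to it, named after the amino acids of a shared motif. The genes were taken as every row of the deposited count table whose symbol is Ddx or Dhx followed by a number and at most 1 lower-case letter, without Ddx6 and the Y-linked Ddx3y, with a mean of at least 1 CPM (counts scaled to the size of the library) over all 24 libraries. Of 56748 rows, 53 had such a name, 51 were left without Ddx6 and Ddx3y, and 50 reached the level (34 Ddx and 16 Dhx genes). The row left out by level was Ddx28, listed with 0 counts in every library. All 50 passed the filter on low counts and were tested. The choice used names and the mean level over all libraries and no difference between groups.

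The libraries are total RNA of hematopoietic stem and multipotent progenitor cells of mice, sorted from bone marrow according to the growth protocol, although the tissue label reads blood. All mice received tamoxifen. There were 8 groups of 3 libraries. Stem cells (HSC) and 3 kinds of multipotent progenitor, which the labels call MPP1, MPP2 and MPP4, were each taken from WT and from KO mice. The labels name neither the gene knocked out, the Cre driver, the strain nor the age, and leave unsaid whether replicates are separate animals. The p-values therefore measure only how far these libraries differ from each other, part of which may be technical. From general knowledge of the study the target is taken to be Ddx6, itself a DEAD box helicase and a core component of P-bodies, the cytoplasmic granules that hold untranslated mRNA. Its row averaged 61.7 CPM in WT HSC and 75.6 CPM in KO HSC, and in no population was it lower in the KO libraries by edgeR's test (in MPP1 Ddx6 was higher, with a log2 change of 0.61 and an adjusted p of 0.0211, or 0.37 and 0.299 after the background subtraction described below). A count over the whole gene does not test a deletion of some of its exons. The groups are therefore called KO-labelled.

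DEAD box proteins mostly open short duplexes or clamp onto RNA without moving along it, whereas DEAH box proteins move along a single strand and pull it out of a complex, often switched on by partner proteins with a G-patch domain. Between them they drive nearly every step in the life of an RNA: the rearrangements of the spliceosome, the folding and cutting of pre-ribosomal RNA in the nucleolus, the export of mRNA, the scanning of 5' leaders, and the sensing of viral RNA by Ddx58 (RIG-I). In blood formation the family is known above all through DDX41, which is mutated in familial myeloid neoplasms.

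Promoters are shown for the genes that the results turn on: Ddx58 and its fellow interferon-inducible gene Ddx60, and Ddx17. The scaled CPM of Ddx17, without background subtraction, was higher in the KO-labelled libraries of every population. The RefSeq promoter table of GRCm38.p6 held 45 of the 50 members. Its windows run from 250 bases before to 50 bases after each start, and both strands were searched. Each line gives the 250 bases before the start, 5′ to 3′ on the strand of the gene, with matches in capitals: the interferon-stimulated response element (GAAA, 2 bases of any kind, GAAA) for Ddx58 and Ddx60, and the letters CCGGAAGT of an ETS site for Ddx17.
Ddx58, chr4:40239826-40240075, minus strand: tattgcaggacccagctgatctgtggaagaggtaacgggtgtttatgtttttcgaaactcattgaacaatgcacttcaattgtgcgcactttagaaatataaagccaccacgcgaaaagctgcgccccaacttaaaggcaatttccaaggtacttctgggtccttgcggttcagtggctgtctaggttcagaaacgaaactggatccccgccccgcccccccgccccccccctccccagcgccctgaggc
Ddx60, chr8:61927837-61928086, plus strand: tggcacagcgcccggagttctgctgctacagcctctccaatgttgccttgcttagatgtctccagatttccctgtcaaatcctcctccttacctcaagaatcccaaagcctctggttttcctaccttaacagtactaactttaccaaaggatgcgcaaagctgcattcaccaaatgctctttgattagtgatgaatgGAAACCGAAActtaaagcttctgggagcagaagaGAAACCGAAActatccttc
Ddx17, chr15:79546742-79546991, minus strand: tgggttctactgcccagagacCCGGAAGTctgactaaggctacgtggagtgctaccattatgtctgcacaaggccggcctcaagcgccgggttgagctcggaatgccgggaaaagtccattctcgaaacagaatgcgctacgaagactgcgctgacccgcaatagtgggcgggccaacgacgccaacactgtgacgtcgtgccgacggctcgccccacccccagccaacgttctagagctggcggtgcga
The 2 matches of Ddx60 begin at -53 and -19 from the start, and the match of Ddx17 begins at -229. For Ddx58 the match lies on the opposite strand just behind the start, at base 3 of the transcript, in the 30 bases of chr4:40239804-40239833: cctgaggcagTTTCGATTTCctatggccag. Over the promoter windows of members (some genes have more than 1), the interferon-stimulated response element was found in 4 of 56 (7.1%), in Ddx49, Ddx58 and Ddx60, and in 3.44% of all 32851 windows. The ETS site was found in 11 of 56 (19.6%) and in 3.89% of all windows, the E-box CACGTG in 12.5% and 7.15%, and CCAAT in 44.6% and 37.41%. The matches are a description of these windows only.

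Total counts per library ran from 2540511 to 3807003. The libraries go against their labels in the sorting markers: Flt3, the receptor that defines MPP4, averaged 1131 CPM in WT MPP2 and 64.5 CPM in WT MPP4, while Slamf1, which marks MPP2, averaged 7.81 and 40.9 CPM. The KO-labelled libraries show the same exchange, with Flt3 at 540 CPM in MPP2 and 84.0 CPM in MPP4 and Slamf1 at 4.75 and 87.0 CPM. Within a label the genotypes differ in these markers too: Flt3 in MPP2 ranged from 1075 to 1175 CPM in WT and from 478 to 621 CPM in KO-labelled libraries, and Slamf1 in HSC from 68.5 to 74.9 and from 221 to 283 CPM. A different makeup of cells under 1 label and a change in these genes cannot be told apart. They are called MPP2-labelled and MPP4-labelled below. Reads over olfactory and vomeronasal receptor genes, which these cells do not use, differed by group. Scaled to the span of every gene, they gave an estimated background of 22.7%, 24.4%, 11.7% and 31.0% of all counts in WT HSC, MPP1, MPP2-labelled and MPP4-labelled libraries, and of 5.63%, 14.0%, 9.54% and 18.7% in the KO-labelled ones. The span takes in introns, and the estimate was not capped at the count of a gene, so it can be too high, as for Ddx25 below. All values after subtraction rest on it. Fold changes below are from the counts as deposited unless they are said to be after subtraction, which means after this background was subtracted gene by gene. As to other cells, the 12 erythroid markers (Alas2 at 0 throughout) summed to 195 to 202 CPM in WT HSC and 113 to 121 in KO-labelled HSC, to 892 to 926 and 98.5 to 141 in MPP1, to 404 to 428 and 259 to 284 in MPP2-labelled cells, and to 1004 to 1076 and 406 to 506 in MPP4-labelled cells. The 12 mature myeloid markers summed to 78.5 to 96.3 CPM in WT HSC and 33.3 to 53.0 in KO-labelled HSC. Of them Itgam was at 0 throughout, and Ccr2, S100a8 and S100a9 were at 0 in KO-labelled HSC. The 14 lymphocyte markers summed to 48.0 to 54.5 and 38.9 to 52.4 CPM in the same groups. Of them Ms4a1 was at 0 throughout, and Cd3d and Cd8b1 were at 0 in KO-labelled HSC. The 14 stromal and endothelial markers summed to 493 to 533 and 590 to 743 CPM, with Cxcl12 at 0 in KO-labelled HSC. These sums do not show which cells the reads came from. The part of these cells in the results was not tested, and in bulk RNA fewer cells of a type and less RNA per cell cannot be told apart.

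The helicases together took 0.234% ± 0.0126 (SD, n = 3) of all counts in WT HSC, 0.247% ± 0.00930 in WT MPP1, 0.255% ± 0.00989 in WT MPP2-labelled and 0.250% ± 0.00559 in WT MPP4-labelled cells. In KO-labelled cells the shares were 0.268% ± 0.0110, 0.275% ± 0.0130, 0.285% ± 0.00441 and 0.282% ± 0.00809. The lowest KO-labelled HSC library (0.262%) stood above the highest WT HSC library (0.248%). In TMM-scaled CPM, the unit used for single genes below, the summed level averaged 2157 in WT HSC and 3109 in KO-labelled HSC. In HSC the difference was thus larger in scaled CPM than in shares of all counts. After subtraction the summed level averaged 2627 CPM in WT HSC and 2845 CPM in KO-labelled HSC, with ranges of 2529 to 2777 and 2787 to 2955. Per kilobase of exon the most abundant members were Ddx39b at 48.2 CPM, Ddx10 at 35.8, Dhx15 at 31.7, Ddx19a at 23.3 and Ddx17 at 23.0 CPM per kb over all libraries. These are an mRNA export factor, a nucleolar helicase, a splicing helicase, a second export factor and a transcription cofactor. After subtraction the order changed, with Dhx15 at 36.9 CPM per kb above Ddx10 at 35.0, and Ddx17 at 26.8 above Ddx19a at 26.5. At the other end, Ddx25 lay at 0.595 CPM per kb. Ddx25, Ddx4 and Ddx43 are known from germ cells, and estimated background equalled 78.9%, 87.0% and 80.5% of their WT HSC counts. For Ddx25 the estimate exceeded the count in WT MPP1 (104%), WT MPP2-labelled (193%), KO-labelled HSC (996%) and KO-labelled MPP1 libraries (266%). It is therefore not a measured share.

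Between WT and KO-labelled cells, differences were tested with edgeR (quasi-likelihood, p-values adjusted over 21964 genes) and called at an adjusted p below 0.05. In HSC 19 of 50 members were higher (18.3% of all genes tested were) and 2 were lower (24.8%). Their median log2 change was 0.48 against -0.31 over all genes. After subtraction 2 were higher (4.49%) and 1 lower (4.21%), with a median of 0.08 against -0.18. Without KO HSC replicate 2 the 19 became 12. In a fit of only the 6 HSC libraries they became 11 (2956 of 16490 of all genes were higher). With median-of-ratios size factors they became 12 (2990 of 21964). With that scaling on the subtracted counts the median was -0.06 against -0.32 over all genes. On the counts as deposited, that scaling lowered the median of all genes from -0.31 to -0.46 in HSC and from -0.08 to -0.24 in MPP4-labelled cells. Of the 50 members, 42 had a positive estimate before subtraction and 31 after it, beside 9605 of 21964 and 7596 of 18441 of all genes.

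In the progenitors fewer members passed the test. In MPP1, 5 were higher (8.71% of all genes) and 1 lower (4.9%), and after subtraction 1 (3.29%) and 0 (2.77%). In MPP2-labelled cells 3 were higher (3.73%) and 1 lower (4.18%), and after subtraction 0 (1.63%) and 1 (3.07%). In MPP4-labelled cells 6 were higher (11.4%) and 0 lower (6.47%), and after subtraction 2 (4.54%) and 0 (2.81%). The counts of 0 are edgeR's; unadjusted p-values below 0.05 in either direction numbered 14 in MPP4-labelled cells as deposited, and 4, 6 and 6 after subtraction in MPP1, MPP2-labelled and MPP4-labelled cells, and DESeq2 on the counts as deposited called 2 lower in MPP1 and none lower in MPP4-labelled cells. The 5 of MPP1 fell to 2, 1, 1 and 3 without WT MPP1 replicates 2 or 3 or KO MPP1 replicates 2 or 3, and the 1 lower to 0 without WT MPP1 replicate 1 or 3 or KO MPP1 replicate 1. The 3 of MPP2-labelled cells fell to 0, 1 and 1 without WT MPP2 replicates 2 or 3 or KO MPP2 replicate 1. With median-of-ratios size factors, 2 were higher in MPP1 and 2 in MPP4-labelled cells, and over all genes the share of calls in the higher direction went from 64.0% to 52.2% in MPP1 and from 63.8% to 44.1% in MPP4-labelled cells. Averaged over the 4 populations, 24 members were higher (22.9%) and 3 lower (30.3%); after subtraction 3 were higher (9.73%) and 2 lower (14.0%). Called both before and after subtraction in that average were Ddx1, Ddx17 and Ddx46, which were higher, and Ddx59, which was lower. The largest average rises were those of Dhx40 (0.89, adjusted p = 0.000950, edgeR), Ddx17 (0.71), Ddx54 (0.66, 0.000524), Ddx46 (0.66), Ddx1 (0.64), Dhx37 (0.61, 0.000458), Ddx41 (0.60) and Ddx21 (0.53, 3.09e-05). After subtraction Dhx40, Ddx54, Dhx37 and Ddx21 had changes of 1.15, 0.42, 0.36 and 0.23, with adjusted p-values of 0.0523, 0.0842, 0.101 and 0.124. The interaction of genotype and population was called for 4 members (17.7% of all genes), and after subtraction for 1 (6.11%).

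**Figure D1:**
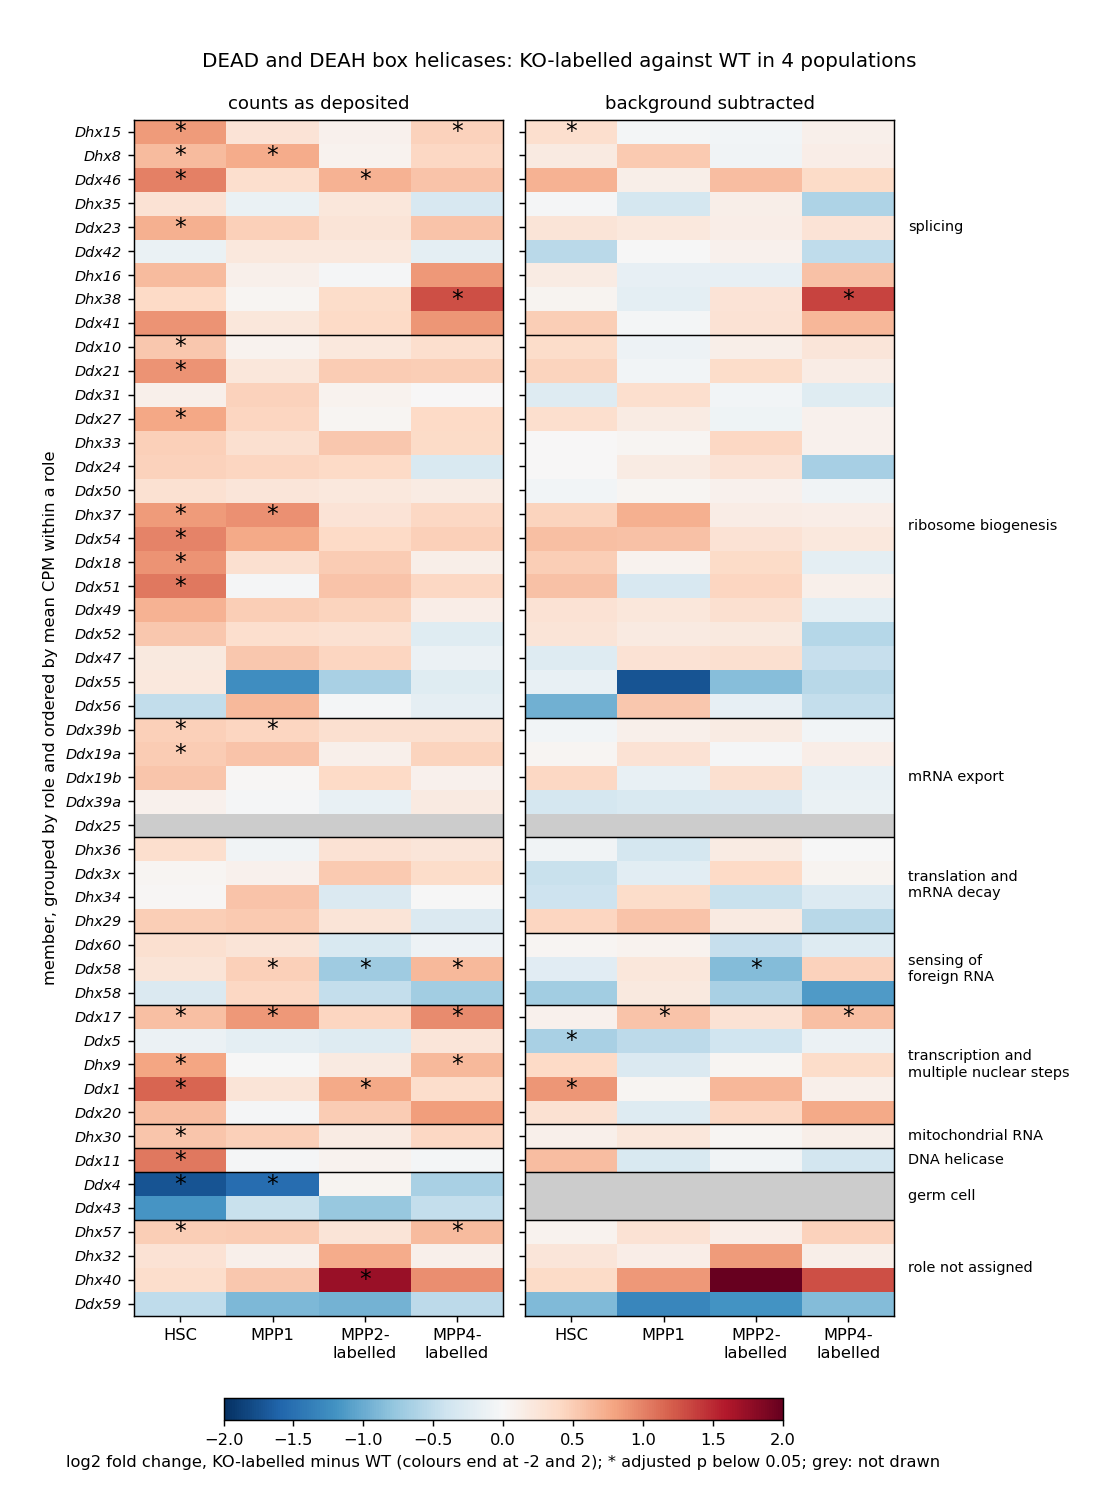
Log2 fold change of KO-labelled against WT cells for the 50 members (rows, grouped by role) in the 4 populations (columns), from the counts as deposited (left) and after background subtraction (right); a star marks an adjusted p below 0.05 by edgeR, and grey rows are genes at or near background whose fold is not drawn. Of the stars in HSC on the left, those of Ddx1 and Dhx15 are also on the right.

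Of the 9 splicing helicases, 4 were higher in KO-labelled HSC and none lower, where 18.3% and 24.8% of all genes were; after subtraction 1 was higher (4.49% of all genes). Dhx15 releases the spliced-out intron and is the most abundant member by counts. It measured 178, 204 and 197 CPM in WT HSC and 318, 396 and 331 CPM in KO-labelled HSC, without overlap. The counts before scaling were 646, 774 and 695 in WT HSC and 919, 1178 and 1053 in KO-labelled HSC. Part of the gap in CPM thus comes with the scaling. The log2 change was 0.85 ± 0.11 (SE; adjusted p = 2.68e-08, edgeR), and after subtraction 0.34 ± 0.10 (adjusted p = 0.0328), or 0.20 with both subtraction and median-of-ratios size factors, where it was no longer called. In MPP1 Dhx15 went from 234, 214 and 205 CPM to 277, 269 and 241 CPM, in MPP2-labelled cells from 328, 317 and 342 to 359, 365 and 323, and in MPP4-labelled cells from 221, 182 and 218 to 255, 304 and 293. The log2 changes there were 0.27, 0.09 and 0.46, and after subtraction -0.04, -0.06 and 0.11. Of these, the change in MPP4-labelled cells passed the test as deposited (adjusted p = 0.00188, edgeR; 0.604 after subtraction), and with both subtraction and median-of-ratios size factors it turned to -0.0434. The change of Dhx15 differed among the populations (interaction, adjusted p = 0.00130 by edgeR; 0.221 after subtraction).

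Ddx46, which acts when the spliceosome first recognises the branch site, measured 33.1, 54.9 and 46.3 CPM in WT HSC and 74.1, 110 and 86.4 CPM in KO-labelled HSC. Its log2 change was 1.01 ± 0.22 (adjusted p = 0.000224, edgeR; 0.69 and 0.0840 after subtraction), and no library of either group overlapped the other. In MPP2-labelled cells it went from 50.9, 60.7 and 63.1 CPM to 103, 82.6 and 99.1 CPM (log2 change 0.70, adjusted p = 0.0336, edgeR), a call lost after subtraction (0.62, 0.193) and in 5 of 6 fits that left out 1 of these libraries, all but that without KO MPP2 replicate 2 (adjusted p 0.0665 to 0.158). Averaged over the populations Ddx46 rose by 0.66 ± 0.11 on the log2 scale (adjusted p = 2.85e-06, edgeR), and by 0.45 after subtraction (adjusted p = 0.0102). Dhx38, which drives the second chemical step of splicing, rose in MPP4-labelled cells, from 12.5, 11.4 and 8.15 CPM to 33.0, 26.2 and 19.1 CPM. The log2 change of Dhx38 was 1.28 ± 0.35 (adjusted p = 0.00802, edgeR) and 1.36 after subtraction (adjusted p = 0.0338); without WT MPP4 replicate 3 or KO MPP4 replicate 1 the adjusted p was 0.0517 or 0.0599. Dhx8, which frees the spliced mRNA, rose in MPP1 by 0.75 ± 0.22 (adjusted p = 0.0168, edgeR; 0.52 and 0.299 after subtraction), a call lost without WT MPP1 replicate 2 or 3 or KO MPP1 replicate 2 (adjusted p 0.0926, 0.0969 and 0.0847). For Ddx41 the average change was 0.60 (adjusted p = 0.0266, edgeR), lost after subtraction (0.35, 0.375) and in 6 fits that left out a library; this gene was named after its values were seen.

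Ribosome biogenesis is the largest role, with 16 members. Of these, 7 were higher in KO-labelled HSC (18.3% of all genes were). After subtraction none was higher by edgeR (4.49% of all genes), and none had an unadjusted p below 0.05. Ddx10, a nucleolar helicase of the small ribosomal subunit and the most abundant of them by counts and per kb, measured 91.2, 83.9 and 85.8 CPM in WT HSC and 97, 160 and 121 CPM in KO-labelled HSC. Its log2 change of 0.53 ± 0.16 (adjusted p = 0.00634, edgeR) was no longer called without KO HSC replicate 2 (0.123), and background made up 27.8% of its WT HSC count. Ddx21, which links RNA polymerase I transcription to rRNA processing, measured 38.8, 64.6 and 39.8 CPM in WT HSC and 82.1, 97.4 and 87.3 CPM in KO-labelled HSC. All libraries of KO-labelled HSC were above those of WT HSC, with a log2 change of 0.90 ± 0.20 (adjusted p = 0.000498, edgeR) that became 0.44 after subtraction (0.198). The largest estimates of the group were those of Ddx51 (1.06), Ddx54 (0.99), Ddx18 (0.91) and Dhx37 (0.86), all helicases of pre-ribosome assembly. After subtraction they were 0.59, 0.61, 0.49 and 0.44, with adjusted p-values of 0.279, 0.286, 0.408 and 0.406 (edgeR). Single libraries carried some of these calls: Ddx51 was lost without KO HSC replicate 1 (adjusted p = 0.0752), Ddx54 without KO HSC replicate 3 (0.0592), Ddx18 without WT HSC replicate 1 or 3 or KO HSC replicate 2 (0.0621, 0.0655 and 0.237), and Dhx37 without WT HSC replicate 3 or KO HSC replicate 2 (0.112 and 0.0952). Dhx37 was also called in MPP1 (0.91, adjusted p = 0.0265, edgeR; 0.71 and 0.233 after subtraction), a call lost without WT MPP1 replicate 1 or 3 or KO MPP1 replicate 2 or 3 (adjusted p 0.0806, 0.197, 0.138 and 0.0555).

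Of the 16 members of ribosome biogenesis, 2 were called higher in wild-type MPP4-labelled cells than in wild-type HSC. Of all genes 2.91% were, and 4.38% after subtraction. Ddx21 measured 74.3, 86.5 and 78.5 CPM in WT MPP4-labelled cells, above all 3 WT HSC libraries (38.8 to 64.6 CPM). The log2 change was 0.74 ± 0.20 (adjusted p = 0.0110, edgeR) and 0.95 after subtraction (0.00378); without WT HSC replicate 1 or 3 the first value was 0.62 or 0.63 (adjusted p = 0.0909 or 0.0842). Ddx49, a helicase of 18S rRNA processing, went from 11.6, 12.9 and 16.8 CPM in WT HSC to 36.2, 21.2 and 25.8 CPM in WT MPP4-labelled cells (1.01, adjusted p = 0.0445, edgeR; 1.25 and 0.0206 after subtraction). Its call was lost in 5 of the 6 fits that left out a library, all but that without WT MPP4 replicate 2 (adjusted p 0.0517 to 0.266), and 29.8% of its exon bases lie opposite exons of Homer3, whose reads cannot be told apart because the strand setting is not given. In these 2 genes subtraction made the difference larger.

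Of the 5 helicases of mRNA export, 2 were higher in KO-labelled HSC (Ddx39b and Ddx19a; 18.3% of all genes were) and 1 lower (Ddx25; 24.8%). Reads of Ddx39a and Ddx39b, and of Ddx19a and Ddx19b, may be split between near-identical copies. Ddx39b (UAP56), which loads the export complex TREX onto mRNA, measured 147, 166 and 133 CPM in WT HSC and 241, 169 and 209 CPM in KO-labelled HSC. The log2 change of 0.47 ± 0.14 (adjusted p = 0.00477, edgeR) turned to -0.06 after subtraction (0.846) and was not called without KO HSC replicate 1 (0.0624). In MPP1 Ddx39b rose by 0.42 (adjusted p = 0.0301, edgeR; 0.10 after subtraction), lost without WT MPP1 replicate 2 or 3 or KO MPP1 replicate 1 or 2 (adjusted p 0.112, 0.109, 0.0564 and 0.175). The direction of Ddx39b thus depended on the subtraction. Ddx25, an export helicase of germ cells, had 7, 34 and 8 counts in WT HSC and 0, 0 and 1 in KO-labelled HSC, and was called lower (adjusted p = 0.00104, edgeR; 0.120 after subtraction); no fold is given for so few counts. Ddx4 (Vasa), the marker of germ cells, likewise had 34, 46 and 30 counts against 7, 14 and 6 (log2 change -1.73, adjusted p = 0.00658, edgeR; -1.64 and 0.599 after subtraction), and in MPP1 80, 67 and 100 counts against 26, 38 and 17 (-1.52, adjusted p = 0.0241; -2.81 and 0.416 after subtraction). Estimated background equalled 87.0% of the WT HSC count of Ddx4 and 91.2% of that in KO-labelled HSC. In MPP1 the estimates for Ddx4 were 39.8% in WT and 73.2% in KO-labelled libraries. The call of Ddx4 in MPP1 was lost without WT MPP1 replicate 1 or 3 or KO MPP1 replicate 1 or 3 (adjusted p 0.0654, 0.113, 0.0686 and 0.143).

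**Figure D2:**
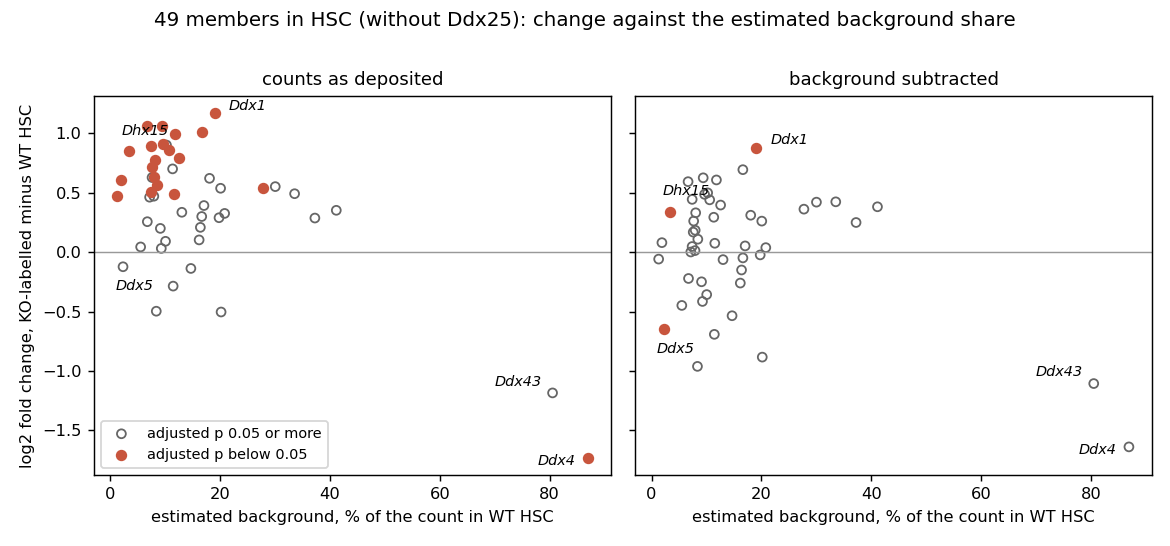
Estimated background as a percentage of the WT HSC count (x axis) against the log2 change of KO-labelled over WT HSC (y axis), for the members other than Ddx25, before (left) and after (right) subtraction; filled points have an adjusted p below 0.05. The germ cell genes Ddx4 and Ddx43 sit apart at 87.0% and 80.5%, and the filled points on the right are Ddx1, Dhx15 and Ddx5.

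No helicase of translation and mRNA decay (4 members) passed the test in any comparison of genotypes by edgeR or DESeq2. By edgeR 18.3%, 8.71%, 3.73% and 11.4% of all genes were higher in HSC, MPP1, MPP2-labelled and MPP4-labelled cells. In the same order 24.8%, 4.9%, 4.18% and 6.47% were lower. In the average 22.9% were higher and 30.3% lower, and 17.7% passed the interaction. With 4 members, a count of 0 is not read as a trait of this role. At an unadjusted p below 0.05 there was 1 of 4 in MPP2-labelled cells and 1 of 4 in the average over the populations, and 0 in HSC, MPP1, MPP4-labelled cells and the interaction. Dhx36, which unwinds G-quadruplexes and has the highest CPM of them without scaling to length, measured 49.3, 56.2 and 38.9 CPM in WT HSC and 55.4, 71.2 and 55.6 CPM in KO-labelled HSC, which overlapped. The median log2 change of the 4 genes in HSC was 0.19, and -0.24 after subtraction.

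Of the 3 RNA sensors, Ddx58 was called in comparisons of genotypes and Ddx60 and Dhx58 were not. Ddx58 (RIG-I), which detects 5'-triphosphate RNA and starts the interferon response, measured 103, 104 and 112 CPM in WT MPP2-labelled cells and 63.6, 72.0 and 60.4 CPM in the KO-labelled ones. It was the member called lower there: the log2 change was -0.70 ± 0.17 (adjusted p = 0.00488, edgeR) and -0.87 ± 0.16 after subtraction (0.000876). In MPP4-labelled cells the levels were lower and the order was the opposite, 31.8, 36.2 and 41.1 CPM in WT and 50.7, 58.4 and 61.2 CPM in KO-labelled cells. Ddx58 rose by 0.64 ± 0.18 in them (adjusted p = 0.00775, edgeR), a call lost after subtraction (0.46, 0.0886) and without WT MPP4 replicate 1 (0.0528). In MPP1 it went from 84.5, 68.0 and 77.1 CPM to 126, 99.3 and 96.5 CPM (0.48, adjusted p = 0.0467, edgeR; 0.22 and 0.529 after subtraction), a call lost in each of the 6 fits without a library of this comparison (adjusted p 0.0507 to 0.261). In HSC the libraries overlapped, at 89.0, 75.4 and 95.7 CPM against 109, 106 and 94.5 CPM (0.26, adjusted p = 0.215, edgeR). After subtraction the HSC levels were 116, 94.1 and 124 CPM in WT and 101, 97 and 88.0 CPM in KO-labelled cells, which turned the estimate to -0.22 (adjusted p = 0.393). Its change differed among the populations with an adjusted p of 0.000152 (edgeR), the smallest of the 50 members, and of 0.00146 after subtraction, where it was the member called by that test.

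Among the wild-type populations Ddx58 was lowest in MPP4-labelled cells, where the 3 libraries (31.8 to 41.1 CPM) lay below every other WT library (68.0 to 112 CPM). Against WT HSC its log2 change was -1.25 ± 0.18 (adjusted p = 5.30e-07, edgeR) and -1.31 after subtraction (2.95e-06). Ddx60, an interferon-inducible helicase linked to RIG-I signalling and the most abundant sensor by counts, showed a like order without passing against HSC: 78.2, 93.9 and 83.8 CPM in WT HSC and 57.0, 74.0 and 50.6 CPM in WT MPP4-labelled cells (-0.49, adjusted p = 0.146, edgeR; -0.65 and 0.206 after subtraction). In the KO-labelled MPP2 libraries Ddx60 measured 58.2, 76.5 and 76.8 CPM against 86.9, 89.6 and 85.6 CPM in WT (-0.31 ± 0.21, adjusted p = 0.427, edgeR; -0.46 and 0.478 after subtraction). Dhx58 (LGP2), a regulator of RIG-I that is itself low here (2.38 to 20.5 CPM), changed by -0.48 ± 0.51 in MPP2-labelled cells (adjusted p = 0.657, edgeR; -0.65 and 0.728 after subtraction).

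**Figure D3:**
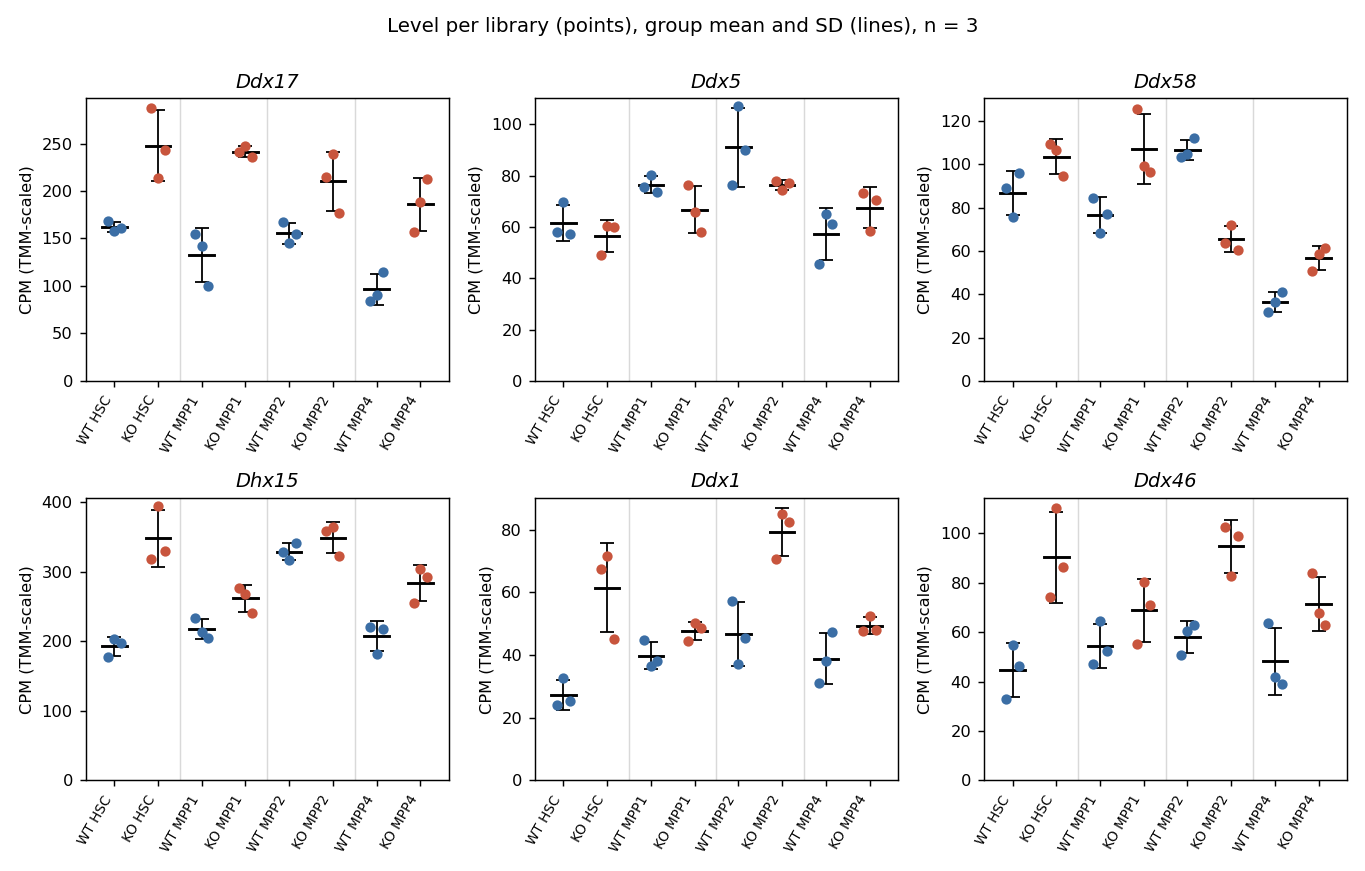
TMM-scaled CPM of 6 members in each library (points; blue WT, red KO-labelled), with the group mean and SD (n = 3). Without background subtraction, Ddx17 is higher in the KO-labelled libraries of every population, the KO-labelled libraries of Ddx58 lie wholly below WT in MPP2-labelled cells and wholly above it in MPP1 and MPP4-labelled cells, and those of Ddx5 overlap WT in each population.

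Of the 5 members with roles in transcription and other nuclear steps, Ddx1, Ddx17 and Dhx9 were higher in KO-labelled HSC, where 18.3% of all genes were. Ddx17 and Ddx5 are paralogous cofactors of transcription, splicing and microRNA processing, similar enough that reads may be split between them. Ddx17 measured 168, 158 and 161 CPM in WT HSC and 287, 213 and 243 CPM in KO-labelled HSC. In MPP1 the values were 155, 142 and 100 against 242, 247 and 235 CPM, in MPP2-labelled cells 167, 145 and 154 against 214, 239 and 177 CPM, and in MPP4-labelled cells 84.4, 90.3 and 115 against 157, 189 and 212 CPM. In scaled CPM before subtraction, every KO-labelled library lay above every WT library of its population. After subtraction the libraries overlapped in HSC (208 to 231 CPM in WT and 196 to 268 in KO-labelled cells) and in MPP2-labelled cells (156 to 182 and 173 to 236 CPM), and not in MPP1 or MPP4-labelled cells. The log2 changes were 0.61 ± 0.14, 0.87 ± 0.14, 0.43 ± 0.14 and 0.95 ± 0.15, with adjusted p-values of 0.000734, 1.86e-05, 0.0547 and 5.37e-06 by edgeR. After subtraction they were 0.08, 0.57, 0.29 and 0.61, called in MPP1 (0.0237) and MPP4-labelled cells (0.0151). With both subtraction and median-of-ratios size factors the estimate for Ddx17 in HSC turned to -0.0572. The average over the populations was 0.71 ± 0.07 (adjusted p = 6.22e-11, edgeR) and 0.39 ± 0.08 after subtraction (0.000617), and all 24 fits without 1 library kept the first call. The change was not called as different among the populations (interaction, adjusted p = 0.187, edgeR).

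Ddx5 (p68) did not follow its paralog. It measured 58.1, 69.6 and 57.1 CPM in WT HSC and 49.2, 60.4 and 60 CPM in KO-labelled HSC, a change of -0.12 ± 0.19 (adjusted p = 0.611, edgeR) that became -0.65 ± 0.17 after subtraction (0.0151). Averaged over the populations the change of Ddx5 was -0.08 ± 0.09 (adjusted p = 0.449, edgeR), and -0.42 after subtraction (0.000635). The ratio of the counts of both genes within a library needs no scaling between libraries, and background was 1.89% of the WT HSC count of Ddx17 and 2.31% of that of Ddx5. The log2 ratio of Ddx17 to Ddx5 averaged 1.40 ± 0.19 (SD, n = 3) in WT HSC and 2.13 ± 0.38 in KO-labelled HSC, 0.77 ± 0.30 and 1.86 ± 0.18 in MPP1, 0.78 ± 0.35 and 1.45 ± 0.24 in MPP2-labelled cells, and 0.76 ± 0.24 and 1.46 ± 0.32 in MPP4-labelled cells. In each population the lowest KO-labelled ratio exceeded the highest WT ratio, by the least in MPP2-labelled cells (1.20 against 1.13). This pair was chosen after its values were seen and is given without a test.

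**Figure D4:**
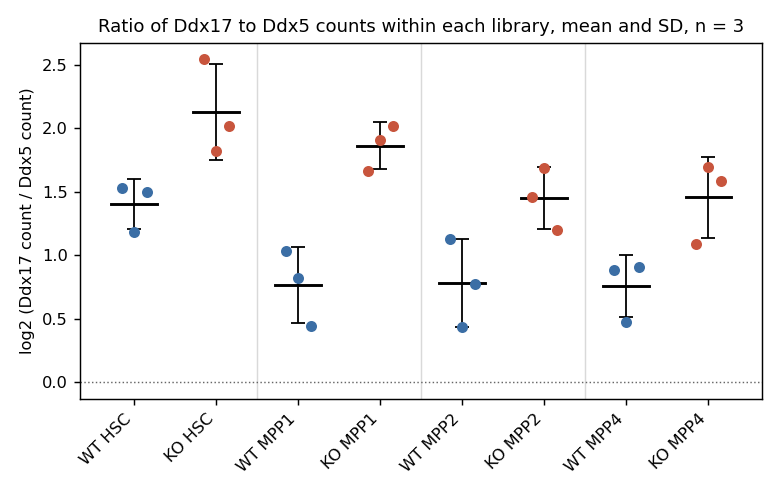
Log2 of the Ddx17 count over the Ddx5 count in each library (points; blue WT, red KO-labelled), with the group mean and SD (n = 3). The KO-labelled libraries lie above the WT libraries of the same population in all 4 populations.

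Ddx1, a subunit of the tRNA ligase complex that also binds mRNA, had the largest rise in HSC, from 24, 32.7 and 25.3 CPM to 67.5, 71.5 and 45.2 CPM. The log2 change was 1.17 ± 0.23 (adjusted p = 8.90e-05, edgeR) and 0.88 ± 0.23 after subtraction (0.0184), or 0.74 with both subtraction and median-of-ratios size factors, where it was no longer called. In MPP2-labelled cells Ddx1 went from 57.4, 37.2 and 45.4 CPM to 70.5, 84.8 and 82.4 CPM (0.77 ± 0.23, adjusted p = 0.0267, edgeR; 0.67 and 0.110 after subtraction); this call was lost without WT MPP2 replicate 2 or 3 or KO MPP2 replicate 2 or 3 (adjusted p 0.172, 0.0953, 0.0910 and 0.0795). The average over the populations was 0.64 ± 0.11 (adjusted p = 1.34e-05, edgeR) and 0.42 after subtraction (0.0105). Its 4 partners of the ligase complex did not pass in any comparison of genotypes by edgeR, and none had an unadjusted p below 0.05; the estimate of Rtcb, the ligase itself, averaged 0.45 ± 0.23 (adjusted p = 0.0909, edgeR; 0.43 and 0.294 after subtraction). Dhx9, an RNA and DNA helicase of transcription, measured 30.0, 43.8 and 49.1 CPM in WT HSC and 58.9, 95.4 and 58.1 CPM in KO-labelled HSC (0.79, adjusted p = 0.00231, edgeR; 0.39 and 0.244 after subtraction), a call lost without KO HSC replicate 2 (0.0651). In MPP4-labelled cells Dhx9 rose by 0.65 (adjusted p = 0.0213, edgeR; 0.37 and 0.315 after subtraction), lost without WT MPP4 replicate 3 or KO MPP4 replicate 1 or 3 (adjusted p 0.0706, 0.0502 and 0.0974).

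Ddx11, a DNA helicase of sister chromatid cohesion, was called higher in HSC only. It measured 49.9, 41.4 and 56.8 CPM in WT HSC and 96.0, 119 and 93.9 CPM in KO-labelled HSC (1.06 ± 0.24, adjusted p = 0.000371, edgeR; 0.62 and 0.153 after subtraction). The estimates elsewhere were -0.02, 0.07 and -0.04, or -0.30, -0.07 and -0.37 after subtraction, and the interaction had an adjusted p of 0.0297 (edgeR; 0.292 after subtraction), lost without WT HSC replicate 1 or 2 or KO HSC replicate 2 (0.0656, 0.119 and 0.112). Dhx30, which acts on mitochondrial ribosome assembly, rose in HSC by 0.56 ± 0.22 (adjusted p = 0.0362, edgeR; 0.11 and 0.844 after subtraction), lost without WT HSC replicate 2 or 3 or KO HSC replicate 2 (adjusted p 0.0618, 0.167 and 0.237). Of the 4 genes with no assigned role, Dhx57 was called in HSC (0.49, adjusted p = 0.0317, edgeR; 0.07 and 0.875 after subtraction) and in MPP4-labelled cells (0.64, 0.0139; 0.46 and 0.193 after subtraction). With both subtraction and median-of-ratios size factors the HSC estimates of Dhx30 and Dhx57 turned to -0.0270 and -0.0624. Dhx57 lost the first call without WT HSC replicate 3 or KO HSC replicate 1 or 3 (adjusted p 0.147, 0.0721 and 0.0775), and the second without WT MPP4 replicate 2 or KO MPP4 replicate 2 (0.0919 and 0.112). Dhx40 rose in MPP2-labelled cells, from 11.8, 8.87 and 10.5 CPM to 42.8, 26.6 and 34.3 CPM (1.73 ± 0.45, adjusted p = 0.0103, edgeR; 2.08 and 0.219 after subtraction), lost without WT MPP2 replicate 2 or KO MPP2 replicate 1 (0.0621 and 0.0514). Ddx59 fell on average by 0.72 ± 0.23 on the log2 scale (adjusted p = 0.00901, edgeR), and by 1.06 after subtraction (0.0186), with no call in a single population; without WT HSC replicate 1, whose 36.4 CPM was the highest of all, the adjusted p was 0.0525.

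Among the wild-type populations, which share the WT HSC libraries with the comparisons above, 10 members differed by the test over all 4 (27.0% of all genes tested did), and 4 after subtraction (16.9%): Ddx17, Ddx21, Ddx58 and Dhx15. Against WT HSC, no member was called in WT MPP1 by edgeR (1.96% of all genes were higher and 1.83% lower), with 7 at an unadjusted p below 0.05 and 2 higher by DESeq2; after subtraction 1 was higher (2.68%), Dhx9 (0.73, adjusted p = 0.0493), and none lower (1.72%). In WT MPP2-labelled cells 5 were higher (11.7%) and none lower (7.37%), with 15 at an unadjusted p below 0.05 and none lower by DESeq2; after subtraction 1 was higher (6.58%) and none lower (3.99%). The count of 5 fell to 2, 2 and 3 without WT HSC replicate 1, WT HSC replicate 3 or WT MPP2 replicate 2. Dhx15 was the member called in both: at 328, 317 and 342 CPM it stood 0.77 ± 0.11 above HSC (adjusted p = 3.97e-07, edgeR) and 0.48 above it after subtraction (0.00185). The others were Dhx9 (0.82), Ddx1 (0.77), Ddx21 (0.74) and Ddx5 (0.56), with adjusted p-values of 0.00285, 0.0142, 0.00704 and 0.0244 (edgeR). After subtraction Dhx9, Ddx1, Ddx21 and Ddx5 stood at 0.63, 0.65, 0.49 and 0.26, with adjusted p-values of 0.0596, 0.0844, 0.182 and 0.399. Single libraries ended the calls of Ddx1 (WT HSC replicates 1 and 3 and WT MPP2 replicate 1, adjusted p 0.0754, 0.0627 and 0.129), Ddx21 (WT HSC replicates 1 and 3 and WT MPP2 replicate 2, 0.0649, 0.0613 and 0.0833) and Ddx5 (WT HSC replicates 1 and 3 and WT MPP2 replicates 2 and 3, 0.0960, 0.106, 0.181 and 0.0582).

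In WT MPP4-labelled cells 2 members were higher than in WT HSC (2.91%) and 2 lower (7.43%), and after subtraction 3 (4.38%) and 2 (7.21%). Beside Ddx21, Ddx49 and Ddx58, Ddx17 was lower, at 84.4, 90.3 and 115 CPM against 168, 158 and 161 CPM (-0.75 ± 0.15, adjusted p = 0.000197, edgeR; -0.61 and 0.00864 after subtraction). The count of 2 higher became 0, 1, 0, 1 and 1 without WT HSC replicates 1, 2 or 3 or WT MPP4 replicates 1 or 3, and 5 by DESeq2. With median-of-ratios size factors the median of all genes moved from 0.05 to 0.17 and the share of calls in the higher direction from 28.2% to 44.6%. By group mean, the sensors and Ddx17 were at their wild-type minimum in MPP4-labelled cells. This was not particular to them: other members had it too, such as Dhx38 (10.7 CPM) and Dhx57 (52.8 CPM). There the 12 erythroid markers summed to 1004 to 1076 CPM, the highest of the 8 groups. Single libraries of Dhx58 overlapped WT HSC (3.57 to 11.9 against 9.64 to 16.1 CPM). Those of Ddx17 overlapped WT MPP1 (84.4 to 115 against 100 to 155 CPM). In WT MPP1 the erythroid markers summed to 892 to 926 CPM. Ddx60 had its highest WT mean there (100 CPM), while Ddx58, Dhx58 and Ddx17 had their next lowest. The part of erythroid cells in the result was not tested.

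The other lists gave counts of the same kind. They are read beside the share of all genes called higher in HSC, 18.3% as deposited and 4.49% after subtraction. Of 19 other RNA helicases, 10 were higher in KO-labelled HSC and 1 after subtraction; the smallest p-values were those of Snrnp200, which unwinds the U4/U6 duplex (0.75), Eif4a1, which unwinds 5' leaders (0.93), and Aqr, an intron-binding helicase (0.77), with adjusted p-values of 1.12e-06, 2.63e-06 and 4.32e-06 by edgeR. After subtraction Snrnp200, Eif4a1 and Aqr stood at 0.23, 0.39 and 0.37, none of them called. Of 15 G-patch proteins and other cofactors of DEAH helicases, 7 were higher in KO-labelled HSC, led by Cherp (1.06, adjusted p = 7.35e-08, edgeR; 0.53 and 0.0205 after subtraction), Gpatch8 (0.85; 0.37 after subtraction) and Rbm5 (0.55; 0.02 after subtraction). Of the 15, 1 was called after subtraction. Of the 7 SMN complex partners of Ddx20 3 were higher (Gemin5 0.86, Gemin7 1.11 and Smn1 1.04, and 0.45, 0.68 and 0.63 after subtraction), and of the 11 TREX partners of Ddx39b 4 (Thoc2 0.69, Nxf1 0.61 and Thoc3 1.26 with the smallest p-values, and 0.36, 0.10 and 0.89 after subtraction); none of either list was called after subtraction (edgeR). The medians of the 4 lists in HSC were 0.55, 0.55, 0.79 and 0.58, beside 0.48 for the DEAD and DEAH box helicases and -0.31 for all genes.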

How the data were processed

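The values are gene-level read counts deposited by the authors in 1 table of 24 libraries, per the file headers; the submitters' processing notes name mm39, SAMtools 1.12 and DESeq2 without their roles, and the aligner, counter and strand setting are not given in the sources used here. Libraries were made with a NEBNext kit from total RNA, per the labels' protocols. Counts were analysed with edgeR 4.0.16 (R 4.3.3): genes passing filterByExpr on the 8 groups, TMM scaling, a quasi-likelihood fit with 1 mean for each group (16 residual degrees of freedom) and Benjamini-Hochberg adjustment over all 21964 genes, called below 0.05. CPM are scaled by TMM, apart from the mean CPM over all libraries that chose and ranked the members and gave the values per kb, which used library totals only. Fold changes are log2, KO-labelled minus WT, with an SE derived from the estimate and the F statistic of its quasi-likelihood test. Background per kb was taken from the counts over 1770 receptor genes and the gene spans of GENCODE M21, used for names, exons and spans only, and subtracted in proportion to span (18441 genes then tested). Totals of 2540511 to 3807003 counts limit precision for members of few counts. Scripts were tested on simulated data. The alternatives tried were other size factors (median of ratios), testing without a filter, at least 5 CPM in 3 libraries, DESeq2 1.42.0, a replicate block, background subtraction, only the 6 libraries compared, and leaving out each library; background subtraction together with median-of-ratios size factors was added after seeing the data. Members, roles and lists were chosen with earlier results of these data known. Named are, per comparison, up to 8 called members with the largest rise and fall, the most abundant member of each role, the smallest interaction p-values and up to 3 genes of each other list.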

Additional observations from a re-analysis of the deposited data

Results flagged for a closer look

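The change between KO-labelled and WT cells differed among the 4 populations for 4 members by the interaction test of edgeR, where 17.7% of all genes tested did. For Ddx58 the adjusted p was 0.00015192, with a lower level in KO-labelled MPP2 cells and a higher one in KO-labelled MPP4 cells; after background subtraction it was 0.00146. For Dhx15 it was 0.00129582, with estimates of 0.85, 0.27, 0.09 and 0.46 in HSC, MPP1, MPP2-labelled and MPP4-labelled cells; after subtraction it was 0.221. For Ddx11 it was 0.0296981, with an estimate of 1.06 in HSC and estimates near 0 elsewhere; after subtraction it was 0.292. For Ddx25 it was 0.00549939, on counts of 0 to 48 per library. Estimated background equalled 78.9% of its WT HSC count and 996% of its KO-labelled HSC count, more than was counted. After subtraction the adjusted p of Ddx25 was 0.120 by the same test. After subtraction 6.11% of all genes passed this test.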

How the results depend on the processing

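With background subtraction, in HSC 2 members were higher and 1 lower, in MPP1 1 and 0, in MPP2-labelled cells 0 higher, in MPP4-labelled cells 2 higher and in the average 3 higher; 1 member differed by the interaction, 1 was higher in WT MPP1 and 1 in WT MPP2-labelled cells than in WT HSC, and 4 differed among WT populations. The shares of all genes after subtraction are given above. With median-of-ratios size factors as well, counts over all 18441 genes are in brackets. In HSC, MPP1, MPP2-labelled and MPP4-labelled cells 0 were higher each (479, 481, 299 and 470). Ddx5 was lower in HSC (949) and in MPP1 (607), and Ddx58 in MPP2-labelled cells (567). In the average 3 were higher (1181), and 1 differed by the interaction (1030). In WT MPP2-labelled cells 1 was higher (857) and 1 lower (906). In WT MPP4-labelled cells 5 were higher (962), and 5 differed among WT populations (2915). Reversed were Ddx39b in HSC under subtraction (-0.0593) and, with both choices, Ddx17 (-0.0572), Ddx19a (-0.0889), Ddx39b (-0.20), Dhx30 (-0.0270) and Dhx57 (-0.0624) in HSC, Dhx15 in MPP4-labelled cells (-0.0434), and Ddx39b (-0.0480) and Dhx15 (-0.000973) in the average; the cause was not tested. Median-of-ratios size factors alone gave 12, 2 and 2 higher in HSC, MPP1 and MPP4-labelled cells. Of all 21964 genes, 2990, 1421 and 1521 were. DESeq2 gave 3 higher and 2 lower in MPP1 (1679 and 1711 of 18557 of all genes) and 5 lower in the average (7810 of 21964). It gave 2 higher in WT MPP1 (663 of 10892) and 5 higher in WT MPP4-labelled cells (1336 of 14725). Without a filter 0 were lower in MPP1 and 1 higher in WT MPP4-labelled cells. Of the 40398 genes then tested, 1070 and 592 were. Fits of only 6 libraries gave 11 higher and 1 lower in HSC (2956 and 4432 of 16490 of all genes). They gave 2 lower in MPP1 (1866 of 17247) and 2 higher in MPP4-labelled cells (1396 of 18108). In WT MPP1 and in WT MPP4-labelled cells 1 was higher each (552 of 18303 and 705 of 18877).

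Leaving out each library gave 12 to 18 higher in HSC, 1 to 5 higher and 0 to 1 lower in MPP1, 0 to 2 higher in MPP2-labelled cells, 2 to 5 higher in WT MPP2-labelled cells and 0 to 2 in WT MPP4-labelled cells. Among such fits of the called members, 1007 kept the call, 133 lost it and 0 reversed. The shares of all genes called in such fits are not given. Between WT and KO-labelled libraries of 1 population, those with the same replicate number did not deviate together (r of -0.02 to 0.02 over 12 pairs). These pairs cannot show whether libraries of 1 genotype share an animal across populations, which was not examined. The numbers were not taken as pairing, and the averages and the WT comparisons treat the libraries as independent. A replicate block gave 1 higher in WT MPP4-labelled cells (630 of 21964 of all genes) and kept 83 of 87 called values. Depth limits the members of few counts, such as Ddx25, and 1.5-fold changes.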
